A study of Homo sapiens with 24 samples.

Results

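SAA1 and 8 other genes of the acute-phase and complement response were followed through sensory neuron cultures treated with cytokines. The set was chosen by symbol, as SAA1, SAA2, LCN2, CP, C3, CFB, C1S, C1R and SERPING1. It holds 17 of the 36468 entries of the count table, because SAA1 and C1R have 2 entries each and CFB has 7. Of these entries, 16 had a total count of at least 10 and were tested, among 29377 tested in all, and 1 CFB entry had no read in any of the 24 libraries.

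The cultures came from H9, a human embryonic stem cell line spelled H9WAO9 by the submitters, of WT genotype. Cells spent 12 days becoming neural crest, 4 days as spheroids and 6 days in differentiation to sensory neurons, and were matured for 2 to 3 weeks. They were then kept for 5 days with vehicle (0.1% BSA in PBS), with TGF-β at 2 ng/ml, with IL-4 at 10 ng/ml plus IL-13 at 3 ng/ml, or with IL-6, whose dose is not given by the labels. Each of 6 batches of differentiation gave 1 library per treatment, and all libraries come from this single line. RNA was taken from whole cultures, of which the study's flow cytometry counted a minority as neurons, so that fewer cells of a type and less RNA per cell cannot be told apart.

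Acute-phase proteins are secreted proteins whose blood level shifts in inflammation. The liver makes most of them, in response to IL-6 through STAT3 and to IL-1 and TNF through NF-κB, but epithelia, fibroblasts, glia and other cells express many of the same genes. Serum amyloid A proteins, lipocalin 2 and ceruloplasmin belong to this response. Complement is a cascade of plasma proteases that overlaps with it: C1r and C1s start the classical pathway, C3 is the central component that all pathways cleave, factor B drives the alternative pathway, and C1 inhibitor, the product of SERPING1, restrains C1r and C1s.

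Reads counted on genes ranged from 33342682 to 39817784 per library, with a median of 35775126. All 8 neuron markers examined, among them TUBB3 and STMN2, were detected in every library. After removal of the treatment means, libraries of a batch resembled each other (median r of 0.56 over 36 pairs and 20962 genes, against a median of -0.16 for 240 pairs of different batches). The vehicle library of batch 2 stood apart, with a mean r of 0.04 with its own batch and 0.37 with batch 4. So did the vehicle library of batch 4 (0.15 with its own batch, 0.35 with batch 2), and the libraries of batch 4 with IL-4+IL-13 or TGF-β were nearer to batch 3. Values without batch 2 or 4 stand beside some of the results. Where leaving out a batch turned the sign of a comparison with vehicle, the range is given near the end. CISH, a STAT target, was higher with IL-4+IL-13 than with vehicle in 6 of 6 batches (log2 fold change 4.40, SE 0.38, edgeR adjusted p = 7.07e-06). SOCS3, a STAT3 target, differed little between IL-6 and vehicle (log2 fold change 0.09, SE 0.09, edgeR adjusted p = 0.882, higher in 3 of 6 batches).

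The upstream sequences of CFB, LCN2 and C1R are shown because their letters can be read against the STAT3 and NF-κB pathways named above. Interferon and C/EBP motifs were also looked for. They come from RefSeq, build GRCh38.p14, are written 5′ to 3′ on the strand of the gene, and leave out stretches that GENCODE annotates as exon. Capitals mark matches, on either strand, to a STAT motif (TTCNNNGAA), an interferon-stimulated response element (GAAANNGAA), a C/EBP motif (TTGCNNAA) or the NF-κB consensus.
CFB, chr6:31945845-31945974, plus strand: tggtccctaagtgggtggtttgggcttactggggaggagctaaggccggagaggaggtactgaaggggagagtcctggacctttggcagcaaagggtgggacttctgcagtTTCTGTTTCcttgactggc
LCN2, chr9:128149265-128149440, plus strand: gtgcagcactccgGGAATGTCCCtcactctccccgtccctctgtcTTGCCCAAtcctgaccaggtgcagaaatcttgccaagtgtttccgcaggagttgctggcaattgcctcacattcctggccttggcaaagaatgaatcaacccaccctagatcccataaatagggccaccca
C1R, chr12:7092541-7092695, minus strand: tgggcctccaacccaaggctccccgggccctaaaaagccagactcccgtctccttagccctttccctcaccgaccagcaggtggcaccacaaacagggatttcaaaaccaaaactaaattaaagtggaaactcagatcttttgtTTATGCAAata
The capitals of CFB are the interferon element at -139 to -131 from the start site. Those of LCN2 are an NF-κB match at -175 to -166 and a C/EBP match at -143 to -136, and those of C1R a C/EBP match at -106 to -99. Nearer to the start of CFB, within an exon of longer transcripts, a run of 29 bases at chr6:31945983-31946011 held an NF-κB and a STAT match, at -112 to -103 and -92 to -84.
CFB, chr6:31945983-31946011, plus strand: GGGGCCCTCCcgcttggatgTTCCGGGAA
Of 35116 promoters of 250 bases, 6.57% held the STAT motif, 9.96% the NF-κB consensus, 6.88% the interferon element and 9.05% the C/EBP motif. A second RefSeq start of C1R, whose window (chr12:7091894-7092143) is not printed, had a STAT match at -86 to -78 and a C/EBP match at -167 to -160. The matches describe letters, not binding. SAA1, SAA2, CP, C3, C1S and SERPING1 have no entry in the table used.

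SAA1 encodes serum amyloid A1, a lipid-binding protein that rises steeply in plasma in inflammation, and lies on chromosome 11 of GRCh38.p14 (18266264 to 18269967), within whose span the annotation also places the pseudogene RNA5SP334. The file splits its reads between an entry named SAA1 and an entry named SAA1-2, whose positions the file does not give. In batches 1 to 6 the SAA1 entry had 385, 2, 4, 3, 62 and 8 counts with vehicle and 387, 4, 9, 4, 150 and 15 with TGF-β. It had 265, 12, 23, 62, 237 and 49 counts with IL-4+IL-13 and 120, 3, 3, 6, 297 and 23 with IL-6. The groups overlapped widely, since batches 1 and 5 were high and batch 2 was at or near the lowest under every treatment. Within a batch, IL-4+IL-13 exceeded vehicle in batches 2 to 6 and lay below it in batch 1.

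The SAA1-2 entry had 299, 2, 0, 0, 28 and 8 counts with vehicle and 336, 0, 5, 4, 133 and 15 with TGF-β, in batches 1 to 6. It had 235, 6, 19, 56, 204 and 48 counts with IL-4+IL-13 and 95, 0, 3, 4, 27 and 0 with IL-6. Again IL-4+IL-13 was higher than vehicle in 5 of 6 batches and lower in batch 1, and IL-6 was lower than IL-4+IL-13 in 6 of 6. The share of SAA1 reads that fell on this entry was between 45.2% and 49.5% with IL-4+IL-13 in batches 3 to 6. It was 8.33% with IL-6 in batch 5 and 0% with IL-6 in batch 6, so the entries did not move as fixed portions of 1 count. How the counting assigned reads to each entry is not known, and the 2 entries were therefore also summed.

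**Figure D1:**
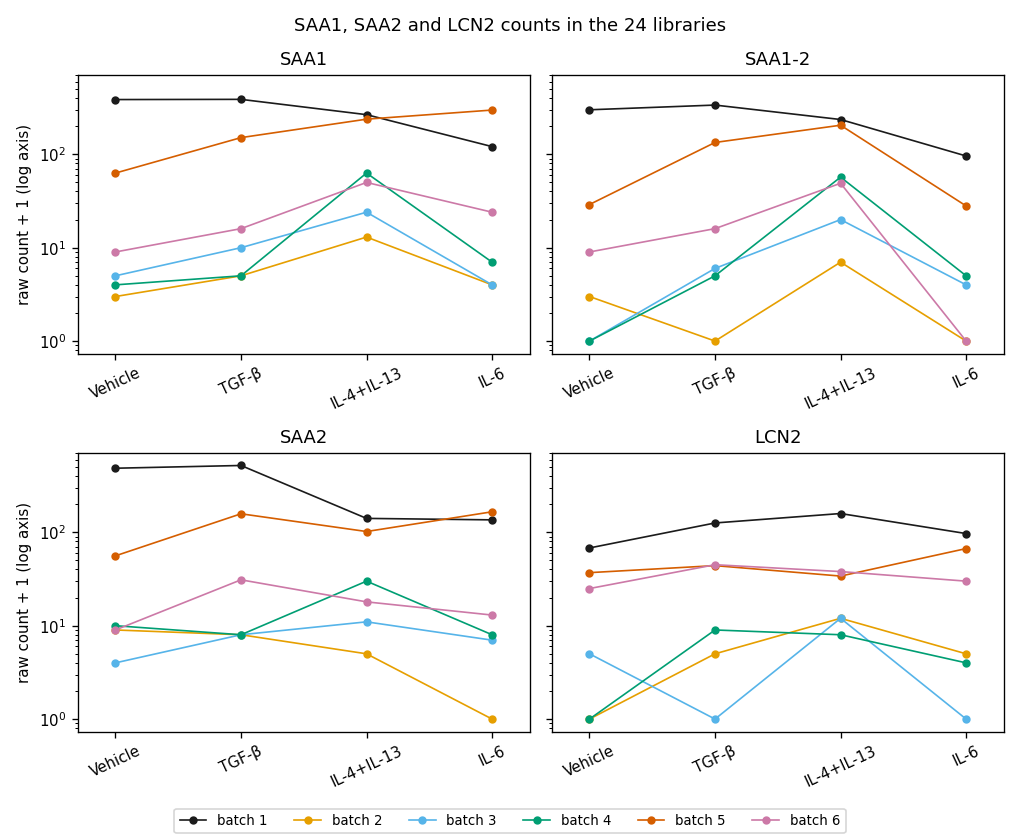
Raw counts plus 1 (log axis) of SAA1, SAA1-2, SAA2 and LCN2 by treatment, 1 point per library and lines joining the libraries of a batch. Batch 1 ran from 120 to 387 counts for SAA1 and batch 2 from 2 to 12, and the IL-4+IL-13 points lie above vehicle for SAA1 in every batch but batch 1.

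Against vehicle, SAA1 had a log2 fold change of 2.04 with IL-4+IL-13 (SE 0.57, edgeR adjusted p = 0.158) and SAA1-2 one of 2.58 (SE 0.66, adjusted p = 0.102), so neither passed the threshold. None of the 16 tested entries was called in this comparison, in which 0.371% of all entries were. An unadjusted p under 0.05 was found for 4 of 16, and for 9.1% of all entries. Leaving out batch 1 gave 2.98 for SAA1 (edgeR adjusted p = 0.00898) and 3.58 for SAA1-2 (adjusted p = 0.0370), and both were then called. Both were also called over batches 3 to 6 alone (3.02 and 3.73, edgeR adjusted p = 0.0205 and 0.0224), and by DESeq2 over all batches (2.29 and 2.90, adjusted p = 0.00291 and 0.00163). Without batch 2 SAA1 stood at 1.93 with an edgeR adjusted p of 0.345. Without batch 4 SAA1 stood at 1.5 and SAA1-2 at 2.04 (edgeR adjusted p = 0.274 and 0.179). Without batch 3, 5 or 6 the edgeR adjusted p was 0.438, 0.256 and 0.529 for SAA1, and 0.334, 0.361 and 0.342 for SAA1-2. Of the fits that left out a batch, only that without batch 1, where the difference was reversed, called either entry. A fit of the 2 groups alone gave 2.00 and 2.52 (edgeR adjusted p = 0.551 and 0.678). The study tested with DESeq2, with terms for batch and treatment and the same limits, and lists SAA1 among its genes for IL-4+IL-13. The DESeq2 fit here used the same terms, over 24 libraries that include IL-6. SAA1 is thus a gene the study itself picked from these libraries, so these values are not independent evidence of its direction.

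With both entries summed, the vehicle libraries held between 3 and 684 SAA1 counts (median 10) and the IL-4+IL-13 libraries between 18 and 500 (median 107.5). On the scale of log2(normalized count + 1), the within-batch difference was 2.39 ± 1.79 (SD, n = 6 batches; exact sign-flip test, p = 0.0625). It ran from -0.57 in batch 1 to 4.89 in batch 4, which was a 29.6-fold difference at very low vehicle counts. In the fit over summed entries SAA1 had a log2 fold change of 2.33 (SE 0.55, edgeR adjusted p = 0.0590).

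With TGF-β, summed SAA1 ran from 4 to 723 counts (median 22) and was higher than vehicle in 6 of 6 batches, by 0.97 ± 0.67 on the log2 scale (SD, n = 6; exact p = 0.03125 by sign flips, which cannot go lower with 6 batches). The difference ranged from 0.08 in batch 2 to 1.63 in batch 5. In batch 2 the raw counts were equal, 4 with vehicle and 4 with TGF-β, so the sign of that batch came from the size factors alone and the p rests on it. This p is unadjusted and is 1 of 54 such tests of the 9 genes in 6 comparisons, of which 2 reached that smallest value, both for SAA1. In the fit across all entries SAA1 stood at 0.65 (SE 0.55, edgeR adjusted p = 0.913) and SAA1-2 at 1.06 (SE 0.64, adjusted p = 0.814). None of the 16 entries was called, beside 0.143% of all entries in this comparison, and 2 of 16 had an unadjusted p under 0.05, beside 7.29% of all entries.

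With IL-6, the cytokine known as the main inducer of the liver acute phase, summed SAA1 ran from 3 to 324 counts (median 16.5). It was higher than vehicle in 4 batches and lower in 2, by 0.43 ± 1.24 on the log2 scale (SD, n = 6; exact sign-flip test, p = 0.375). The SAA1 entry had a log2 fold change of 0.60 (SE 0.58) and SAA1-2 one of -0.80 (SE 0.71), with edgeR adjusted p values of 0.873 and 0.866. None of the 16 entries was called and none had an unadjusted p under 0.05. In that comparison edgeR called 0% of all entries, with 1400 at an unadjusted p under 0.05, whereas DESeq2 called 120 of them.

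Set against IL-4+IL-13 directly, IL-6 gave lower summed SAA1 in 6 of 6 batches, by -1.96 ± 1.11 on the log2 scale (SD, n = 6; exact sign-flip test, p = 0.03125). SAA1-2 had a log2 fold change of -3.39 (SE 0.69, edgeR adjusted p = 0.0296) and was the 1 entry of 16 called, beside 0.279% of all entries. The SAA1 entry stood at -1.44 (SE 0.54, edgeR adjusted p = 0.737), and over summed entries SAA1 was at -2.04 (SE 0.53, adjusted p = 0.149). The call of SAA1-2 held when batch 1 was left out (-3.76, edgeR adjusted p = 0.0316) and was lost without batch 2 (-3.30, 0.0555), 3 (-3.39, 0.118), 4 (-3.09, 0.0884), 5 (-3.57, 0.169) or 6 (-3.09, 0.217), each value being the log2 fold change and the edgeR adjusted p. The test was thus passed by 1 of the 2 entries and in 1 of the 6 fits that leave out a batch.

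SAA2 encodes the closely related serum amyloid A2 and lies beside SAA1 on chromosome 11 (18238236 to 18248668), where its span overlaps the readthrough gene SAA2-SAA4 and RNA5SP333. Because SAA1 and SAA2 are near-identical, reads can be split between them, and their values are uncertain to that extent. In batches 1 to 6 SAA2 had 485, 8, 3, 9, 55 and 8 counts with vehicle and 519, 7, 7, 7, 157 and 30 with TGF-β. With IL-4+IL-13 it had 140, 4, 10, 29, 101 and 17, and with IL-6 135, 0, 6, 7, 165 and 12. Batch 1 was the highest except with IL-6, where batch 5 was, and in batch 1 IL-4+IL-13 and IL-6 both lay below vehicle.

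No SAA2 comparison with vehicle passed the test. The log2 fold change was 0.29 with IL-4+IL-13 (SE 0.53, edgeR adjusted p = 0.917), 0.69 with TGF-β (SE 0.50, adjusted p = 0.878) and -0.20 with IL-6 (SE 0.54, adjusted p = 0.962). Without batch 4 the value with IL-4+IL-13 was -0.12. Summed over SAA1 and SAA2, the within-batch difference was 1.73 ± 1.62 with IL-4+IL-13 (SD, n = 6; exact sign-flip test, p = 0.09375) and 0.86 ± 0.69 with TGF-β (SD, n = 6; exact p = 0.0625). The neighbours SAA2-SAA4 and SAA4, the constitutive family member, had 0 to 35 and 0 to 3 counts per library.

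LCN2, on chromosome 9 (128149453 to 128153453), encodes lipocalin 2, which binds bacterial siderophores and so withholds iron. In batches 1 to 6 it had 67, 0, 4, 0, 36 and 24 counts with vehicle and 125, 4, 0, 8, 43 and 44 with TGF-β. With IL-4+IL-13 the counts were 158, 11, 11, 7, 33 and 37, and with IL-6 96, 4, 0, 3, 66 and 29. Vehicle was the lowest in batches 1, 2, 4 and 6, and all groups overlapped. Its log2 fold change was 1.33 with IL-4+IL-13 (SE 0.57, unadjusted p = 0.0298, edgeR adjusted p = 0.484), 0.91 with TGF-β (SE 0.56, adjusted p = 0.822) and 0.64 with IL-6 (SE 0.56, adjusted p = 0.866), each higher in 5 of 6 batches. The within-batch difference with IL-4+IL-13 was 1.58 ± 1.38 (SD, n = 6; exact sign-flip test, p = 0.0625).

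CP, on chromosome 3 (149162414 to 149221829, overlapping HPS3), encodes ceruloplasmin, the copper-carrying ferroxidase of plasma. It had by far more reads than the genes above. In batches 1 to 6 CP had 53429, 5127, 5185, 6773, 25013 and 19850 counts with vehicle and 38042, 1173, 1114, 1910, 11727 and 19779 with TGF-β. With IL-4+IL-13 it had 49744, 2671, 8186, 20441, 25718 and 16158, and with IL-6 34387, 1561, 4351, 8768, 27301 and 15350. TGF-β was below vehicle in batches 1 to 5, and about level with it in batch 6.

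Against vehicle CP had a log2 fold change of -1.06 with TGF-β (SE 0.39, unadjusted p = 0.0142, edgeR adjusted p = 0.447), from -1.40 to -0.82 when each batch was left out in turn. Within batches the difference was -1.20 ± 0.96 (SD, n = 6; exact sign-flip test, p = 0.0625). Without batch 2, whose vehicle library stood apart, it was -0.82 (edgeR adjusted p = 0.553), and without batch 4 -0.99 (adjusted p = 0.455). With IL-4+IL-13 CP stood at 0.24 (SE 0.38) and with IL-6 at -0.38 (SE 0.38), with edgeR adjusted p values of 0.903 and 0.876. The value with IL-4+IL-13 was -0.0891 without batch 4.

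Between the 2 treatments CP was higher with IL-4+IL-13 than with TGF-β in 5 of 6 batches (log2 fold change 1.30, SE 0.40, unadjusted p = 0.00470, edgeR adjusted p = 0.108). None of the 16 entries was called in this comparison, beside 1.18% of all entries. An unadjusted p under 0.05 was found for 4 of 16, and for 12.2% of all entries. DESeq2 called CP (1.30, adjusted p = 0.0199), as did edgeR without batch 6 (1.69, adjusted p = 0.0451). Without batch 4 CP stood at 0.90. The SAA1 entry stood at 1.40 in this comparison (SE 0.54, edgeR adjusted p = 0.253) and was called without batch 1 (1.87, adjusted p = 0.0309) and over batches 3 to 6 (1.90, adjusted p = 0.0396).

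C3, on chromosome 19 (6677704 to 6720650), encodes the protein that all complement pathways cleave. In batches 1 to 6 C3 had 28411, 2099, 1674, 2241, 7029 and 4363 counts with vehicle and 27702, 1167, 1089, 1911, 10402 and 5755 with TGF-β. With IL-4+IL-13 it had 22809, 1993, 3133, 7969, 9996 and 5291, and with IL-6 17918, 1107, 1627, 3483, 11838 and 4384. The spread between batches was far wider than that between treatments. C3 had a log2 fold change of 0.58 with IL-4+IL-13 (SE 0.27, unadjusted p = 0.0493, edgeR adjusted p = 0.548), higher in 4 of 6 batches. With TGF-β it stood at -0.02 (SE 0.27) and with IL-6 at -0.00 (SE 0.27), with an edgeR adjusted p of 1 for both.

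CFB, on chromosome 6 (31946095 to 31952084), encodes factor B, the protease of the alternative pathway convertase. Its 7 entries differed in depth, from a mean of 84.5 counts per library for the entry named CFB to 0.833 for CFB-6 and none for CFB-4. CFB-5 and CFB-7 had equal counts in 24 of 24 libraries, and CFB-3 was within 1 count of CFB-7 in all 24, so these are not separate measurements, and a sum over all entries may count the same reads more than once. The main CFB entry had 96, 24, 45, 46, 237 and 285 counts with vehicle and 103, 17, 21, 14, 112 and 86 with TGF-β in batches 1 to 6. It had 103, 12, 46, 105, 139 and 78 counts with IL-4+IL-13 and 84, 15, 84, 55, 101 and 119 with IL-6. TGF-β lay below vehicle in every batch but batch 1. Over all entries, batches 1 to 6 had 189, 55, 82, 71, 237 and 304 counts with vehicle and 196, 29, 45, 35, 133 and 166 with TGF-β. IL-4+IL-13 gave 196, 32, 71, 105, 160 and 125, and IL-6 155, 15, 116, 90, 174 and 176. The order of TGF-β and vehicle in each batch was the same in this sum, most of which is the main entry, and the ranges of the groups overlapped. The shallower entries did not share the direction of the main entry. With TGF-β against vehicle, CFB-2 had a log2 fold change of 0.61 (SE 0.92) and CFB-3 one of 0.22 (SE 0.68). CFB-5 and CFB-7 each stood at 0.23 (SE 0.67), and CFB-6 at -0.01 (SE 0.66).

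The within-batch difference of the main CFB entry was -0.89 ± 0.68 with TGF-β, -0.36 ± 1.00 with IL-4+IL-13 and -0.31 ± 0.79 with IL-6 (SD, n = 6 each; exact sign-flip p = 0.0625, 0.46875 and 0.34375). Over all entries it was -0.64 ± 0.41 with TGF-β (SD, n = 6; exact sign-flip test, p = 0.0625). It was -0.35 ± 0.60 with IL-4+IL-13 (SD, n = 6; exact p = 0.15625) and -0.36 ± 0.76 with IL-6 (SD, n = 6; exact p = 0.3125). For the main CFB entry the log2 fold change with TGF-β was -0.87 (SE 0.35, unadjusted p = 0.0245, edgeR adjusted p = 0.540), and over summed entries it was -0.61 (SE 0.24, adjusted p = 0.492). IL-4+IL-13 and IL-6 each stood at -0.34 (SE 0.35), with edgeR adjusted p values of 0.826 and 0.879. Without batch 4 the value with IL-4+IL-13 was -0.71 (edgeR adjusted p = 0.345).

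**Figure D2:**
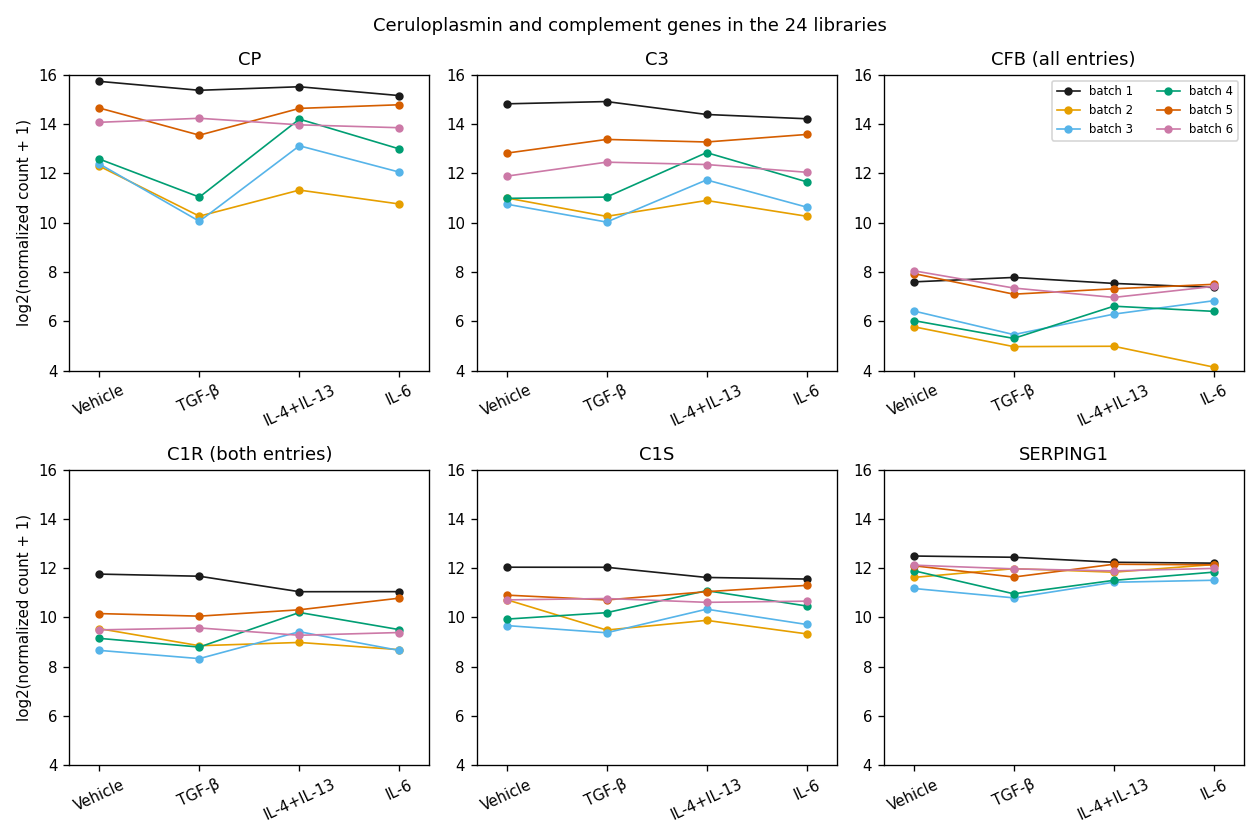
Levels of CP, C3, CFB, C1R, C1S and SERPING1 as log2(normalized count + 1) by treatment, 1 point per library and lines joining the libraries of a batch. Batch 1 was the highest for C3 under every treatment, and SERPING1 shows the narrowest spread between batches.

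C1S and C1R, neighbours on chromosome 12 (7060718 to 7071032 and 7080219 to 7092445), encode the proteases that form the enzymatic core of C1. C1S had 4128, 1726, 791, 1080, 1865 and 1933 counts with vehicle in batches 1 to 6, and 3769, 686, 696, 1064, 1638 and 1788 with TGF-β. It had 3352, 984, 1188, 2361, 2133 and 1578 counts with IL-4+IL-13 and 2841, 582, 862, 1522, 2442 and 1680 with IL-6. The vehicle library of batch 2 was the highest of its batch, whereas in batch 4 IL-4+IL-13 was the highest. The log2 fold change was -0.27 with TGF-β, 0.08 with IL-4+IL-13 and -0.18 with IL-6 (SE 0.22 each), with edgeR adjusted p values of 0.900, 0.947 and 0.895. With TGF-β it ran from -0.35 to -0.05 when each batch was left out in turn, and with IL-6 it was 0.08 without batch 2. Without batch 4 the value with IL-4+IL-13 was -0.12.

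C1R reads were split between 2 entries of similar depth, with means of 571.7 and 495.1 counts. Summed, vehicle held 393 to 3401 counts (median 797), TGF-β 336 to 2930 (median 611), IL-4+IL-13 528 to 2244 (median 953.5) and IL-6 373 to 1993 (median 738.5). TGF-β lay below vehicle in 5 of 6 batches, by -0.25 ± 0.27 on the log2 scale (SD, n = 6; exact sign-flip test, p = 0.0625). The differences were 0.08 ± 0.71 with IL-4+IL-13 and -0.12 ± 0.58 with IL-6 (SD, n = 6 each; exact p = 0.8125 and 0.65625). With TGF-β the entry named C1R was lower than vehicle in 4 of 6 batches, and the entry named C1R-2 in 3 of 6. Their log2 fold changes with TGF-β were -0.21 (SE 0.22) and -0.28 (SE 0.27). In batch 5 the within-batch differences had opposite signs, 0.26 for C1R and -0.62 for C1R-2. Both entries had edgeR adjusted p values of at least 0.848 against vehicle.

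SERPING1, on chromosome 11 (57597685 to 57614848), encodes C1 inhibitor, which inactivates C1r, C1s and plasma kallikrein. In batches 1 to 6 it had 5655, 3225, 2246, 4219, 4263 and 5140 counts with vehicle and 4994, 3859, 1860, 1810, 3119 and 4120 with TGF-β. With IL-4+IL-13 it had 5137, 3817, 2535, 3154, 4617 and 3819, and with IL-6 4442, 4098, 2992, 3947, 4353 and 4225. SERPING1 varied least over the libraries, and no treatment held all of its highest or lowest values. Its log2 fold change was -0.26 with TGF-β (SE 0.13, edgeR adjusted p = 0.727), lower in 5 of 6 batches, -0.07 with IL-4+IL-13 (SE 0.13, adjusted p = 0.930) and 0.07 with IL-6 (SE 0.13, adjusted p = 0.947). Between IL-6 and TGF-β it stood at 0.33 (SE 0.13, unadjusted p = 0.0247, adjusted p = 0.563), and SAA1-2 at -1.86 (SE 0.69, unadjusted p = 0.0140, adjusted p = 0.464). Those were the 2 of 16 entries with an unadjusted p under 0.05 in that comparison, beside 7.5% of all entries. None was called, beside 0.0306% of all entries.

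**Figure D3:**
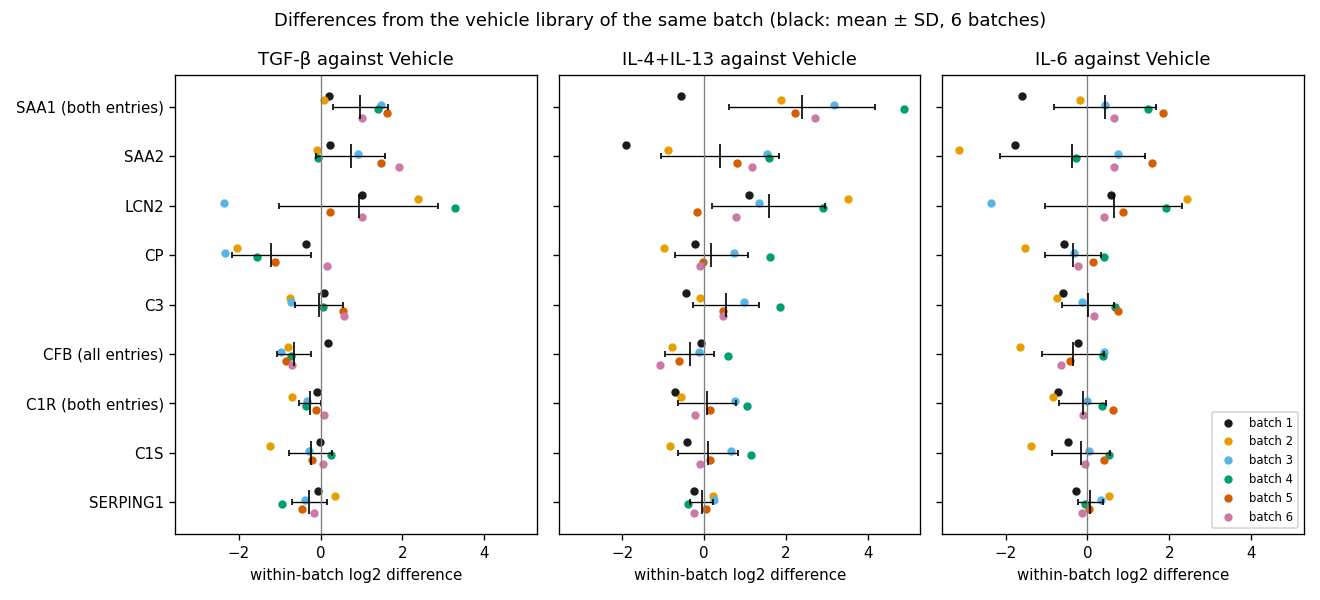
Within-batch log2 difference from vehicle of the 9 genes, entries of a gene summed, in 1 panel per cytokine treatment. Coloured points are the 6 batches, and black marks the mean ± SD. Summed SAA1 lies above 0 in 6 of 6 batches with TGF-β and in 5 of 6 with IL-4+IL-13, where the points reach from -0.57 to 4.89.

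Over the 16 tested entries the median log2 fold change was 0.11 with TGF-β, 0.16 with IL-4+IL-13 and 0.03 with IL-6, beside a median of -0.01 over all entries in each comparison. Between IL-4+IL-13 and TGF-β it was 0.39, between IL-6 and TGF-β 0.14 and between IL-6 and IL-4+IL-13 -0.20. These comparisons share libraries, and the CFB entries among the 16 share reads.

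Scaled to the length of the MANE Select transcript, as log2(normalized count per kb + 1), the 9 genes spanned a wide range of levels with vehicle. CP was at 11.47 ± 1.42, SERPING1 at 11.03 ± 0.46, C3 at 9.66 ± 1.56 and C1S at 9.24 ± 0.83 (SD, n = 6 each). C1R followed at 8.48 ± 1.08, CFB at 5.68 ± 1.00, SAA1 at 5.26 ± 3.08, SAA2 at 5.09 ± 2.63 and LCN2 at 3.21 ± 2.79 (SD, n = 6 each). C1S was above C1R and C1R above CFB in each of 6 batches, with an exact p of 0.03125 for both. SERPING1 was above C3 by 1.37 ± 1.20 (SD, n = 6; exact sign-flip p = 0.09375), higher in 5 of 6 batches, a difference larger than its SD that did not pass the test. The other neighbours in that order differed by less than the SD of their difference, with exact sign-flip p between 0.09375 and 0.75. CFB is given here over all entries.

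Batch of differentiation accounted for most of the variance of each gene. For C3 it was 90.2%, with 2.58% for treatment, for SAA2 86.6% and 3.18%, for C1R 86.4% and 1.68%, and for CFB over all entries 83.2% and 4.74%. The main CFB entry alone had 75.1% and 7.11%. SAA1 and CP had the largest treatment shares of the 9, 12.2% and 10.1%, with 80.7% and 79.4% for batch. For C1S the shares were 80.7% and 2.87%, for LCN2 79.6% and 6.30%, and for SERPING1 70.5% and 8.87%. Over the 29377 entries tested the medians were 54.9% for batch and 6.77% for treatment.

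**Figure D4:**
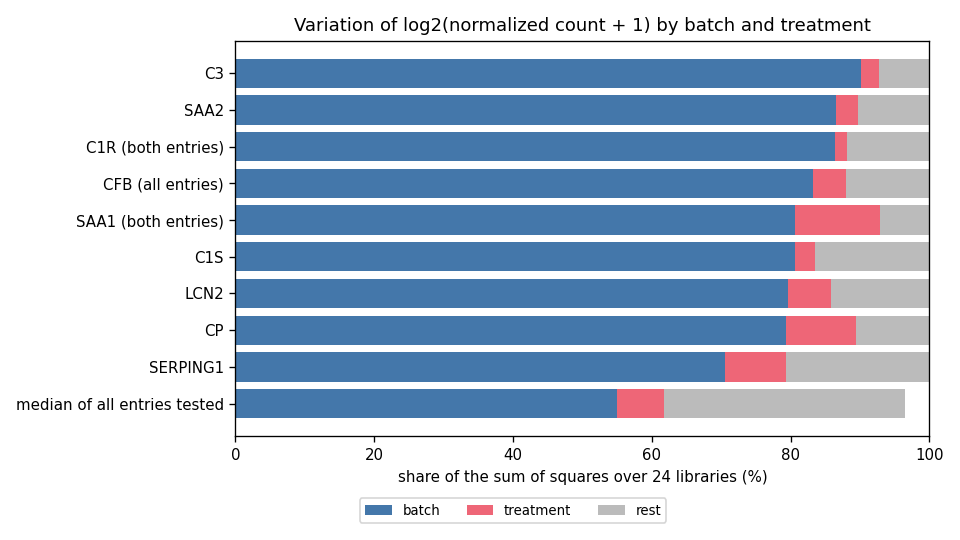
Share of the variance in log2(normalized count + 1) over 24 libraries that goes with batch, with treatment and with neither, in percent, for each of the 9 genes and as medians over 29377 entries (medians need not add up to 100). Batch takes from 70.5% (SERPING1) to 90.2% (C3), and treatment at most 12.2% (SAA1).

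The batches had a similar order for several members. The mean count of C3 was 24210 in batch 1, 9816 in batch 5 and 1592 in batch 2, and that of summed SAA1 was 530.5, 284.5 and 7.25 in the same batches. CP had a mean of 43900.5 counts in batch 1 and 2633 in batch 2. Marker genes of other cell types also differed between batches. The summed normalized counts of 7 hepatocyte markers lay between 563795 and 827707 in batch 1, between 265596 and 315691 in batch 6, between 92677.9 and 241343 in batch 5, and at most 84286.8 in batches 2 to 4. Batch 6 thus lay above batch 5 for these markers, while its mean count of summed SAA1, 41.5, lay below. Nearly all of that sum was TTR, transthyretin, which the choroid plexus and other tissues express too, while ALB had 5 to 27 counts, APOA1 2 to 22 and AHSG 0 to 13 over all 24 libraries. Epithelial markers summed to between 20273.1 and 38894.1 in batch 1 and between 8195.58 and 15631.1 in the other batches. Most of that sum was KRT8 and KRT18, which KRT19 and largely CLDN4 followed. EPCAM did not, with 562 to 817 counts in batch 1 and 1247 to 1577 in batch 3. CDH1 overlapped (80 to 425 counts in batch 1, 121 to 360 in batch 5). Macrophage markers summed to between 1601.02 and 2610.03 in batch 1 and between 1568.55 and 1942.84 in batch 6, so that these batches overlapped. They summed to between 1118.44 and 1496.83 in batch 5 and between 549.001 and 1044.39 in batches 2 to 4. AIF1, CD14 and LYZ had at most 2, 15 and 13 counts in any library, so the sums came almost wholly from the other markers. CD68 had 704 to 1413 counts in batch 1 and 219 to 256 in batch 6, whereas PTPRC had 541 to 716 and 1141 to 1471. The neuron markers were lowest in batch 1 (42159.7 to 72405.6). Their part in the batch pattern was not tested.

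Single markers also differed between treatments. CDH1, the epithelial cadherin, fell with IL-4+IL-13 against vehicle (log2 fold change -1.89, edgeR adjusted p = 0.00957). Between IL-4+IL-13 and TGF-β, TTR was higher by 1.04 (edgeR adjusted p = 0.0432) and COL1A1, a fibroblast collagen, differed by -1.31 (adjusted p = 0.00675), in the comparison in which CP stood at 1.30. There KDR, an endothelial receptor, was higher by 1.30 (edgeR adjusted p = 0.0116) and CDH1 differed by -1.27 (adjusted p = 0.0457). The other endothelial markers, PECAM1, CDH5 and VWF, had at most 45, 56 and 29 counts in any library. In that comparison the median log2 fold change was -0.26 over 7 hepatocyte and -0.08 over 8 fibroblast markers. It was 0.83 over 4 endothelial and -0.11 over 6 epithelial markers, so single markers need not stand for their cell type. The part of these markers in the values of the 9 genes was not tested.

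After removal of batch means, C3, C1R, C1S and CP varied together over the 24 libraries. The correlation was 0.85 between C3 and C1R, 0.83 between C3 and C1S, 0.80 between C1S and C1R and 0.77 between CP and C3. SAA1 followed C3 (0.75), whereas SERPING1 followed neither C1S (0.04) nor SAA1 (-0.02). Among 16910 other entries, those most like SAA1 by the same measure were PRAG1 (0.90), CPA4 (0.82) and THBS1 (0.82). Those most like C3 were ADTRP (0.95), SH3RF2 (0.88) and LOXL3 (0.87), and those most like C1S were NID2, VCL and LMX1B (0.91 each). These correlations describe 24 libraries that share batches and treatments.

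Other genes of the same pathways were read from lists written from general knowledge. Of all entries, 0.371% were called with IL-4+IL-13 against vehicle, 0.143% with TGF-β and 0% with IL-6. Between IL-4+IL-13 and TGF-β it was 1.18%, between IL-6 and TGF-β 0.0306% and between IL-6 and IL-4+IL-13 0.279%. At such shares, lists of this size would hold few or no calls, so a list without calls is not thereby unchanged. Of 16 acute-phase genes of the liver 14 could be tested, and SERPINA3, the protease inhibitor α1-antichymotrypsin, was called. It fell with IL-4+IL-13 against vehicle (log2 fold change -1.23, SE 0.20, edgeR adjusted p = 0.00395), opposite in sign to SAA1, and was lower than with TGF-β (-1.12, adjusted p = 0.00280). With IL-6 it was higher than with IL-4+IL-13 (1.09, edgeR adjusted p = 0.0123). FGG, the γ chain of fibrinogen, at a mean of 23.25 counts per library, was higher with IL-4+IL-13 than with TGF-β (4.63, SE 1.18, adjusted p = 0.0389). No member of the list was called in either direction with TGF-β or IL-6 against vehicle.

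Among 23 genes of complement activation 17 were tested and none was called in any of the 6 comparisons. The list median with TGF-β against vehicle was -0.70, beside -0.01 over all entries. An unadjusted edgeR p under 0.05 was found for 3 of 17 in that comparison, beside 7.29% of all entries. The list holds genes near the floor, such as C2, whose deepest entry had 0 to 3 counts per library. COLEC12, a scavenger receptor that binds microbial sugars, stood at -0.70 (SE 0.19, edgeR adjusted p = 0.153) and C7, a part of the membrane attack complex, at -1.70 (SE 0.75, adjusted p = 0.623). COLEC12 was higher with IL-4+IL-13 than with TGF-β by 0.75 (edgeR adjusted p = 0.0314), under the limit of 1 on the fold. Of 16 complement regulators and receptors 15 were tested. CFI, the protease that degrades C3b, was higher with IL-4+IL-13 than with TGF-β (1.42, edgeR adjusted p = 0.0130), and C3AR1, the receptor for C3a, was lower (-1.89, adjusted p = 0.0231). Neither list had a call against vehicle. C3AR1 was also the only call among 10 receptors and binding partners of the member proteins.

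Of 14 STAT3 and gp130 genes, CEBPD, a transcription factor of the acute phase, was the only one called, higher with IL-4+IL-13 than with TGF-β (1.14, edgeR adjusted p = 0.000283). Genes that IL-6 signals through had reads in the whole cultures, which tells neither of protein nor of the cells that held them. IL6R, the IL-6 receptor, had a median of 211 counts with vehicle (164 to 322) and 196 with IL-6 (37 to 235). IL6ST, which encodes gp130, had medians of 8051.5 and 7744, and STAT3 of 10898 and 10175. SOCS3 had a median of 2566.5 counts with vehicle and 2652.5 with IL-6. Of 21 NF-κB genes 20 were tested and none was called, with CXCL1 at 0.54 and CCL2 at 0.58 for IL-4+IL-13 against vehicle (edgeR adjusted p = 0.569 and 0.209). An unadjusted edgeR p under 0.05 was found for 5 of 20 in that comparison, beside 9.1% of all entries. Between IL-4+IL-13 and TGF-β it was found for 8 of 20, beside 12.2% of all entries. With TGF-β against vehicle it was 1 of 20, and with IL-6 against vehicle 0 of 20. No call was made in these 2 lists against vehicle.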

How the data were processed

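RNA of 24 cultures (6 batches, 4 treatments) was sequenced on an Illumina NovaSeq instrument by BMK. The deposited values are raw counts per entry, for which the authors' provider checked quality with FastQC, trimmed adapters with Trimmomatic 0.30 and aligned reads to GRCh38.p14. Which aligner and counter were used, and whether libraries were stranded, is not given in the sources used here. No libraries were pooled, and the counts were normalized only within the fits and for the levels, as given below. Entries with the same symbol were tested separately, and were also summed where the text says so. The levels per kb and the variance shares of SAA1 and C1R are of summed entries too.

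Entries with a total count of at least 10 over 24 libraries (29377 of 36468) entered 1 fit of edgeR 4.0.16 (R 4.3.3; TMM, robust quasi-likelihood F test, terms for treatment and batch, p adjusted by Benjamini-Hochberg over these entries). Calls needed both an adjusted p below 0.05 and an absolute log2 fold change above 1. Each SE was obtained from F, as the absolute log2 fold change divided by its root. DESeq2, which the study also used, was the second tool here, in version 1.42.0. Levels are log2(normalized count + 1) with DESeq2's size factors. Exact two-sided sign-flip tests used all 64 sign patterns of the 6 batch differences, so p cannot fall below 0.03125, and they were not adjusted. In simulated counts for 200 changed genes, edgeR recovered 86% of changes of 1.5 on the log2 scale for IL-4+IL-13 against vehicle, over 28723 genes. The changed genes were drawn from those above a minimum mean count, and each change was the same in every batch. That share therefore does not describe summed SAA1, whose within-batch difference ran from -0.57 to 4.89 in this comparison.

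Batches pair the libraries by the labels, which name the batch of each, and batch was therefore a term of the fit. Each p sets a treatment difference against how such differences varied among batches of 1 line, with the level of each batch taken out. Counts of single libraries carry counting error, which is largest for SAA1, SAA2 and LCN2.

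The text names all entries of the 9 symbols, genes of the lists that were called, and otherwise the 2 most abundant of a list. Some genes are not reported here. Members and lists were chosen with earlier results of these data known. Upstream sequences and gene positions are RefSeq's, and transcript lengths GENCODE v44's.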

Additional observations from a re-analysis of the deposited data

Results flagged for a closer look

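CFB counts summed over all entries were far from the others in the IL-6 library of batch 2, with 15 counts against 90 to 176 in the other 5 IL-6 libraries. The gap to the nearest library was 0.673 of the group's range on the log2 scale, past the 95% limit of Dixon's test for 6 samples. Of 40 groups examined this was the 1 past its limit, and chance gives about 1 in 20. The sum may count the same reads more than once, and in the main CFB entry that library also had 15 counts, against 55 to 119 in the other 5. Batch 2 was also low for CFB under the other treatments.

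SAA1-2 differed between the effects of 2 treatments. Its log2 fold change for IL-6 against IL-4+IL-13 was -3.39 (edgeR adjusted p = 0.0296), while against vehicle it was 2.58 with IL-4+IL-13 and -0.80 with IL-6. The SAA1 entry of the same gene stood at -1.44 in that comparison (edgeR adjusted p = 0.737).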

How the results depend on the processing

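The call rule gave none of the 16 entries for IL-4+IL-13 against vehicle, but 2 (SAA1 and SAA1-2) with DESeq2 and over batches 3 to 6, and 0 to 2 when a batch was left out. For IL-4+IL-13 against TGF-β it gave 1 with DESeq2 and over batches 3 to 6, and 0 to 1 when a batch was left out. For IL-6 against IL-4+IL-13, where 1 entry was called, it gave 0 without the replicate block, in a fit of the 2 groups only and with entries of a symbol summed, and 0 to 1 when a batch was left out. The summed entries and batches 3 to 6 were settings chosen after seeing the data. The other counts of called members stayed at 0.

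Without the replicate block, that is with the pairing by batch ignored, SAA1 stood at 0.42 for IL-4+IL-13 against vehicle and SAA1-2 at 0.69, and SAA1-2 at -2.03 for IL-6 against IL-4+IL-13. Signs turned for C3 with TGF-β (0.16), SAA2 (-0.98) and C1S (-0.0030) with IL-4+IL-13, SAA1 with IL-6 (-0.0052), and C3 between IL-4+IL-13 and TGF-β (-0.0536). In other settings, values near 0 turned sign: C3 with IL-6 in the fit of the 2 groups (0.0228), C3 with TGF-β (0.0047) and C1R with IL-4+IL-13 (0.017) in 18 libraries without IL-6, and C1R with IL-4+IL-13 over summed entries (0.11). Over batches 3 to 6 the values were 0.17 for C3 with TGF-β, 0.38 for C1R with IL-4+IL-13 and, with IL-6, 0.0216 for SAA1-2, 0.92 for SAA2, 0.0076 for CP, 0.37 for C3, 0.23 for C1S and 0.18 for C1R. The within-batch difference of SAA2 with IL-4+IL-13 was -0.0286 with log2(CPM + 1). The cause was not tested.

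When each batch was left out in turn, the log2 fold change with IL-4+IL-13 ran from 1.5 to 2.98 for SAA1, 2.04 to 3.58 for SAA1-2, -0.12 to 1.03 for SAA2, -0.0891 to 0.52 for CP, -0.22 to 0.19 for C1R, -0.12 to 0.30 for C1S and -0.13 to 0.0169 for SERPING1. With IL-6 it ran from -0.0946 to 1.46 for SAA1, -0.85 to 0.40 for SAA2, -0.16 to 0.16 for C3, -0.30 to 0.0339 for C1R, -0.31 to 0.0797 for C1S and -0.0217 to 0.13 for SERPING1, and with TGF-β from -0.15 to 0.14 for C3. Without batch 2 the main CFB entry stood at -0.95 with TGF-β (edgeR adjusted p = 0.400).

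The count of all entries called depended on the setting. TGF-β against vehicle had 42, with 234 by DESeq2, 0 without the replicate block, 0 in a fit of the 2 groups, 102 by adjusted p alone, 6 in 18 libraries, 102 over batches 3 to 6 and 1 to 40 when a batch was left out. IL-4+IL-13 against vehicle had 109, with 292, 13, 25, 186 and 72 under the first 5 of these and 60 to 122 when a batch was left out. IL-6 against vehicle had 0, with 120 by DESeq2. IL-4+IL-13 against TGF-β had 347, with 627 by DESeq2, 49 without the block, 874 by adjusted p alone and 196 to 444 when a batch was left out. IL-6 against TGF-β had 9, with 17 under edgeR's own expression filter, 248 by DESeq2, 0 without the block, 29 in a fit of the 2 groups, 23 by adjusted p alone, 70 over batches 3 to 6 and 0 to 22 when a batch was left out. IL-6 against IL-4+IL-13 had 82, with 255 by DESeq2, 13 without the block, 134 by adjusted p alone and 52 to 109 when a batch was left out.

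Depth limits SAA1, SAA2 and LCN2, which had fewer than 10 counts in many libraries, so that their fold changes rest on few reads in those libraries.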
